A study of Mus musculus with 6 samples.

Results

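Followed here by symbol in satellite cells were 10 cadherin genes, namely the classical or type I cadherins *Cdh1*, *Cdh2*, *Cdh4* and *Cdh15*, the type II cadherins *Cdh5*, *Cdh6*, *Cdh10*, *Cdh11* and *Cdh22*, and the lipid-anchored *Cdh13*. They are 10 of 54115 annotated genes with a value in the files, and all 10 were among the 17152 genes with enough reads to be tested (5 or more reads in 2 or more libraries). The genes were picked by symbol, with earlier results of these data known. Expression was measured by RNA-sequencing of freshly isolated satellite cells, the resident muscle stem cells, in 3 *Pax7WT* and 3 *Pax7KR* libraries. The paper cites evidence that isolation itself partly activates such cells. *Pax7KR* mice were homozygous for a constitutive CRISPR-Cas9 knock-in in which arginine replaces an acetylated lysine of PAX7, the transcription factor that marks satellite cells, and *Pax7WT* mice were their wild-type littermates. All mice were C57BL/6J and, per the methods, 6 to 8 weeks old, and the satellite cells of both genotypes came from hindlimb muscles that had not been injured. Cells were sorted as positive for α7-INTEGRIN and CD34 and negative for CD31, CD11b, SCA-1 and CD45, and 15 ng of RNA per sample entered the library. Sex, and whether a sample held the cells of more than 1 mouse, were not given in the sources used here, so p-values measure the spread between these samples.

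Cadherins are calcium-dependent adhesion proteins that bind cadherins of a neighbouring cell through their extracellular repeats. In classical and type II cadherins the cytoplasmic tail binds p120-catenin near the membrane and β-catenin or plakoglobin near its end, and α-catenin ties that complex to actin. *Cdh13* encodes T-cadherin, which lacks such a tail, is held in the membrane by a lipid anchor and also binds adiponectin. Satellite cells sit between the myofibre and the basal lamina, and M-cadherin, the product of *Cdh15*, has long been used to label them at the contact with the fibre.

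The ends of the coding sequences differ between *Cdh13* and the other most abundant members, *Cdh15* and *Cdh4*. These bases alone do not show whether a protein has a cytoplasmic tail. The last 90 coding bases, stop codon included, are shown for the leading transcripts of 5 members, from GENCODE vM21 on GRCm38. Capitals mark CTGGCNGACNTGTANGG (N is any base), a 17-base stretch chosen after the sequences were seen. It was built from the ends of *Cdh15*, *Cdh4*, *Cdh1* and *Cdh11*, without *Cdh13*. It lies near the end of the part that encodes the cytoplasmic tail. The 5 ends lie at chr8:122866934-122867023 on the plus strand (*Cdh15*), chr2:179895829-179895918 plus (*Cdh4*), chr8:106668526-106668615 plus (*Cdh1*), chr8:102634314-102634403 minus (*Cdh11*), and, for *Cdh13*, across an exon junction at chr8:119314113-119314194 and chr8:119323395-119323402 plus.
Cdh15: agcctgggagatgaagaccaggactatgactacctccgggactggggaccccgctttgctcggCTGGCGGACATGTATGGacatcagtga
Cdh4: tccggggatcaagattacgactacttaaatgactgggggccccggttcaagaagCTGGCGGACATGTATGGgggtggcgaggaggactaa
Cdh1: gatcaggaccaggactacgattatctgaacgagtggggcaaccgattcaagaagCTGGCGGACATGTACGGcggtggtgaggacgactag
Cdh11: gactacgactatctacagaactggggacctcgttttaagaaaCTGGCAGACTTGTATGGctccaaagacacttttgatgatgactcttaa
Cdh13: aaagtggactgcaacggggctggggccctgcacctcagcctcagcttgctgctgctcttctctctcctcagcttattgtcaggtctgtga

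The 17-base stretch, searched on the sense strand of every protein-coding transcript, was present in 6 of 21901 protein-coding genes (0.027%). All 6 were cadherins, namely *Cdh1*, *Cdh2*, *Cdh3*, *Cdh4*, *Cdh11* and *Cdh15*. Because the stretch was built from *Cdh1*, *Cdh4*, *Cdh11* and *Cdh15*, only *Cdh2* and *Cdh3* were further matches. *Cdh5*, *Cdh6*, *Cdh10*, *Cdh13* and *Cdh22* lacked those letters, which says nothing of whether their proteins bind a catenin. The last 8 coding bases of *Cdh13* form its last coding exon, while the last coding exons of *Cdh15* and *Cdh4* hold 201 and 207 bases. Over aligned bases, the coding sequences of pairs of members were 58.3% (*Cdh5* and *Cdh22*) to 71.8% (*Cdh6* and *Cdh10*) identical. Exact sharing was rare, since 0% (*Cdh5*, *Cdh15* and *Cdh22*) to 4.78% (*Cdh11*) of a member's 31-base words occurred in transcripts of another gene, and 1.22% did so in *Cdh10*, the next highest.

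The libraries held 17822367 to 27908054 estimated reads. The knock-in changes a codon and deletes no part of the gene, and *Pax7* was present at 1480 to 1666 CPM (reads scaled to a common normalised library size) in *Pax7WT* and 1410 to 1637 CPM in *Pax7KR* libraries, a log2 fold change of -0.05 (SE 0.08). This does not check the knock-in, because estimated reads carry no base calls. All 10 genes of a satellite cell marker list held reads, with a summed level of 6476 to 7274 CPM in *Pax7WT* and 6752 to 7124 CPM in *Pax7KR* libraries. In edgeR's quasi-likelihood test, 0% of the 17152 genes had a Benjamini-Hochberg adjusted p under 0.1, and the lowest adjusted p was 0.302. An unadjusted p under 0.05 was found for 803 genes, which is 4.68%, and DESeq2 called 30 genes, or 0.175%. The genotypes did not overlap in CPM for 1773 genes, or 10.3%.

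Of the 10 cadherins, 0 were called between *Pax7KR* and *Pax7WT* by edgeR or by DESeq2, 0 had an unadjusted edgeR p under 0.05, and 0 had genotypes that did not overlap in CPM. Their log2 fold changes (*Pax7KR* minus *Pax7WT*) ran from -0.83 to 0.40 with a median of 0.06, beside a median of -0.004 over all genes tested, and 7 were above 0 and 3 below. The lowest adjusted p among them was 0.992 in edgeR. A p above the threshold does not show that levels were equal, and the 95% intervals differed greatly in width among members. They were narrowest for *Cdh13*, *Cdh4* and *Cdh15*, the members with the most reads, and widest for *Cdh10* and *Cdh22*, those with the fewest.

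*Cdh15* was the most abundant member on the length-corrected scale of TPM, which gives levels that can be compared between genes. Its level was 235, 283 and 227 TPM in the *Pax7WT* libraries and 256, 249 and 287 TPM in the *Pax7KR* libraries, in the order of replicates 1, 2 and 3, which is used throughout. The genotypes overlapped, and their highest libraries, *Pax7WT* replicate 2 and *Pax7KR* replicate 3, lay close together. The mean over all libraries was 256 TPM ± 24.5 (SD, n = 6), which ranked 433rd among genes tested, at the 97.5th percentile. On normalised reads, which were used for the test, *Cdh15* stood at 425, 524 and 411 CPM in *Pax7WT* and 446, 437 and 514 CPM in *Pax7KR*. The log2 fold change was 0.04 (SE 0.10, 95% interval -0.18 to 0.26), which puts the ratio of *Pax7KR* to *Pax7WT* between 0.88 and 1.2.

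*Cdh13* followed, with 108, 108 and 105 TPM in *Pax7WT* and 119, 124 and 112 TPM in *Pax7KR* libraries. On this scale the genotypes did not overlap, with all 3 *Pax7KR* libraries higher. The normalised reads were 224, 244 and 223 CPM in *Pax7WT* and 244, 252 and 226 CPM in *Pax7KR*, and on that scale *Pax7KR* replicate 3 lay below *Pax7WT* replicate 2. The log2 fold change was 0.06 (SE 0.07, 95% interval -0.08 to 0.20). The file's TPM sums over 7 transcripts with reads, and the coding transcript Cdh13-201 alone stood at 95.5, 104 and 95.6 TPM in *Pax7WT* and 111, 113 and 97.9 TPM in *Pax7KR*, which overlap. Among the non-coding transcripts of the gene, Cdh13-208, with 580 bases, took 2.42% to 12.0% of the gene's TPM on 12.1 to 85.6 reads.

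*Cdh4* encodes R-cadherin, a classical cadherin first known from retina. It stood at 14.3, 14.7 and 12.2 TPM in *Pax7WT* and at 15.0, 15.4 and 17.6 TPM in *Pax7KR*, again without overlap on this scale. In CPM the values were 47.9, 51.7 and 46.8 against 51.2, 49.5 and 55.0, which overlap, and the log2 fold change was 0.09 (SE 0.07, 95% interval -0.07 to 0.25). *Cdh13* and *Cdh4* were thus 2 of the 10 members with no overlap in TPM, where 12.5% of all genes tested had none, and where the median log2 ratio of TPM over all genes was 0.06 in favour of *Pax7KR*. For *Cdh13* that ratio was 0.15 on the log2 scale. The leading transcript Cdh4-201 alone stood at 12.35, 12.96 and 12.17 TPM in *Pax7WT* and 13.99, 13.11 and 14.23 TPM in *Pax7KR*. Unlike those of Cdh13-201, these values did not overlap. With transcript length as an offset in edgeR, the log2 fold change was 0.16 (SE 0.11) for *Cdh4* and 0.08 (SE 0.06) for *Cdh13*.

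These 3 cadherins made up nearly all cadherin mRNA of the kind. Over 20 classical, type II and related cadherins, the members and 10 others, the summed level was 390 TPM ± 30.3 (SD, n = 3) in *Pax7WT* and 423 TPM ± 11.1 (SD, n = 3) in *Pax7KR*. *Cdh15* supplied 59.5% to 66.6% of that sum, *Cdh13* 25.4% to 29.7% and *Cdh4* 3.30% to 4.04%, depending on the library. The share of the 3 together was 92.8% to 95.7%, and that of all 10 members 99.1% to 99.3%. *Cdh15* exceeded *Cdh13* by 2.01 to 2.62 times in TPM, and *Cdh13* exceeded *Cdh4* by 6.38 to 8.67 times, in 6 of 6 libraries each and without overlap of their ranges.

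**Figure D1:**
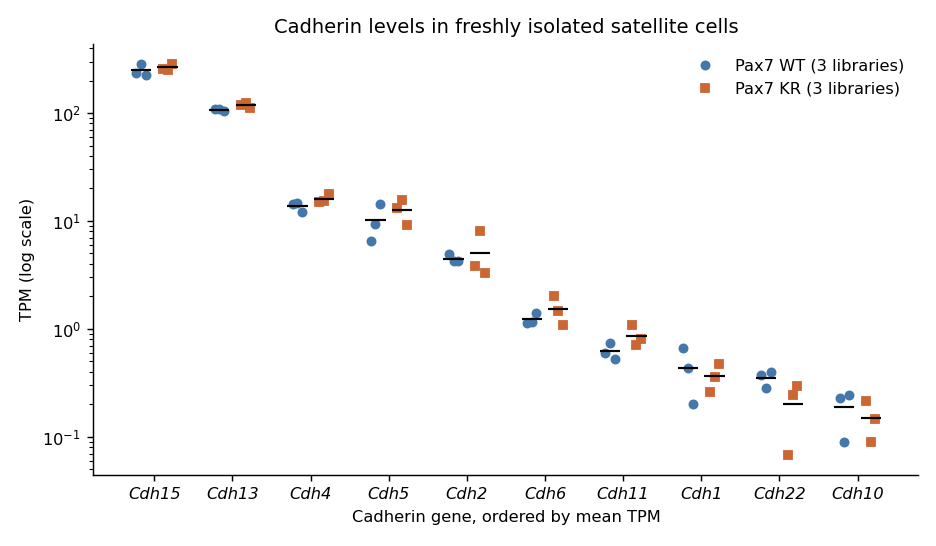
Level of each of the 10 cadherins in TPM (log axis), with a point for each of the 3 *Pax7WT* libraries (circles) and 3 *Pax7KR* libraries (squares) and a black bar at each mean. The means fall from 256 TPM for *Cdh15* to 0.169 TPM for *Cdh10*, and the spread of the points widens towards the low end.

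Below them the order was less sharp. *Cdh4* was above *Cdh5* in 4 of 6 libraries, and the ranges of the pair overlapped. *Cdh5* was above *Cdh2* in 6 of 6 libraries although their ranges overlapped, and *Cdh2*, *Cdh6* and *Cdh11* followed each other in 6 of 6 libraries without overlap. Among *Cdh11*, *Cdh1*, *Cdh22* and *Cdh10*, each neighbour was higher in 5 of 6 libraries and the ranges overlapped, so their order was not separated from the spread.

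*Cdh5* encodes VE-cadherin, the cadherin of endothelial junctions, and it was detected in every library although CD31-positive cells had been gated out. Its level was 15.6, 22.9 and 34.3 CPM in *Pax7WT* and 30.0, 35.3 and 20.7 CPM in *Pax7KR*, so that the libraries varied 2.27 times and the genotypes overlapped. The log2 fold change was 0.25 (SE 0.37, 95% interval -0.73 to 1.23), and leaving out single libraries moved it from 0.0033 (without *Pax7WT* replicate 1) to 0.59 (without *Pax7WT* replicate 3). Of 16 endothelial markers, 15 were tested and 13 of these had a log2 fold change above 0, with a median of 0.37. Over all genes tested, 8399 of 17152 were above 0. Among the 15 markers, 0 had an unadjusted edgeR p under 0.05 and 0 had genotypes that did not overlap in CPM. None of the 16 was at 0 reads in all libraries. Their summed level was 350 to 430 CPM in *Pax7WT* and 382 to 502 CPM in *Pax7KR*. Without *Tek*, which satellite cells are also known to make and which was set aside after the values were seen, the sums were 134, 166 and 223 CPM in *Pax7WT* and 223, 281 and 166 CPM in *Pax7KR*. By this sum the 6 libraries came in the same order as by *Cdh5*, from *Pax7WT* replicate 1 up to *Pax7KR* replicate 2. That order rests on near ties at 166 and at 223 CPM. With *Tek* included the order differed, since *Pax7WT* replicate 2 was lowest at 350 CPM and *Pax7WT* replicate 1 stood at 365 CPM.

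*Pecam1*, which encodes the CD31 used in the gate, stood at 20.7, 22.0 and 42.2 CPM in *Pax7WT* and 34.5, 50.4 and 26.9 CPM in *Pax7KR*, with a mean of 16.8 TPM beside 11.4 TPM for *Cdh5*. *Ptprb*, a phosphatase partner of VE-cadherin, stood at 29.1, 41.8 and 58.0 CPM against 59.2, 71.9 and 47.9 CPM. Both were picked after their values were seen. Of the 16 markers, 7 were lowest in *Pax7WT* replicate 1, 10 were highest in *Pax7KR* replicate 2, and 6 were both (*Pecam1*, *Tie1*, *Esam*, *Emcn*, *Eng* and *Ptprb*). The others had another order, such as *Kdr*, *Cldn5* and *Ly6a*, which were highest in *Pax7WT* replicate 3. The part of these genes' source in the level of *Cdh5* was not tested. In RNA from a sorted population, fewer cells of a type and less RNA per cell cannot be told apart.

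**Figure D2:**
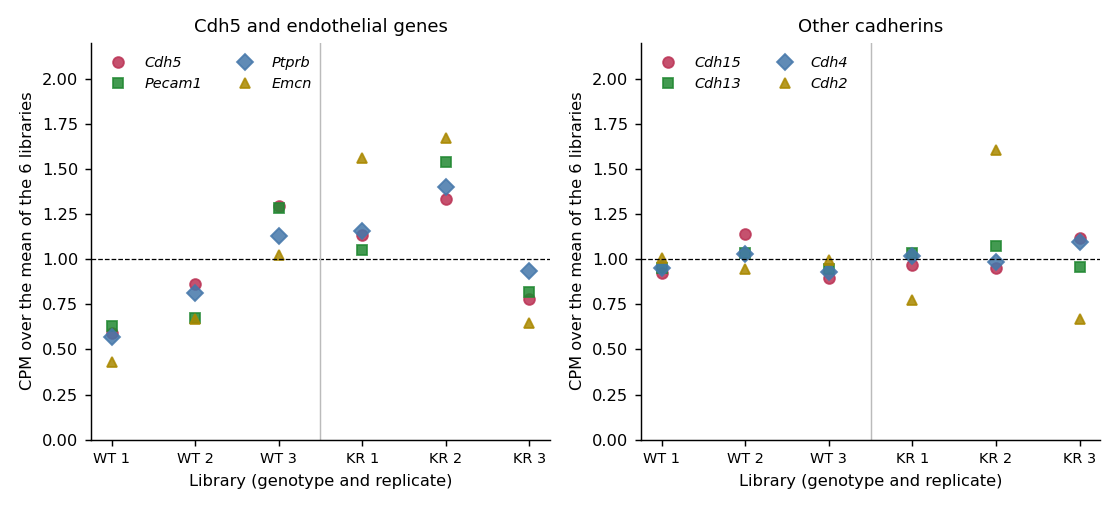
CPM of single genes divided by their mean over the 6 libraries (vertical axis, starting at 0), by library (horizontal axis). At left, *Cdh5* and 3 endothelial genes (*Pecam1*, *Ptprb* and *Emcn*), picked from 16 after their values were seen, are lowest in *Pax7WT* replicate 1 and highest in *Pax7KR* replicate 2. At right, *Cdh15*, *Cdh13* and *Cdh4* lie near 1 in every library, while *Cdh2* stands out in *Pax7KR* replicate 2.

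*Cdh2* encodes N-cadherin, a classical cadherin of neurons, heart and cultured myoblasts. It stood at 11.9, 11.1 and 11.7 CPM in *Pax7WT*, a narrow range, and at 9.10, 18.9 and 7.90 CPM in *Pax7KR*. *Pax7KR* replicate 2 lay above and the other two *Pax7KR* libraries lay below every *Pax7WT* library. The log2 fold change of 0.05 (SE 0.34, 95% interval -0.79 to 0.89) therefore depended on that library. Without it the log2 fold change was -0.45 (SE 0.16), with an unadjusted p of 0.016 and an adjusted p of 0.9999 in edgeR. Of 138 alternative fits of the members, by edgeR or DESeq2, this alone had an unadjusted p under 0.05. *Pax7KR* replicate 2 also had the highest CPM of *Cadm1*, an adhesion protein of the nectin-like family, at 25.9 against 9.88 to 19.8 in the other libraries. It was also the highest for the endothelial gene *Egfl7*, at 11.6 against 3.32 to 5.51. Both were picked after their values were seen, and whether they bear on *Cdh2* was not tested.

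*Cdh6* encodes K-cadherin and *Cdh11* encodes OB-cadherin, type II cadherins known from kidney and from mesenchymal cells. *Cdh6* stood at 5.66, 5.76 and 7.07 CPM in *Pax7WT* and at 9.27, 6.87 and 5.34 CPM in *Pax7KR*, with the highest and the lowest library both *Pax7KR*. Its log2 fold change was 0.22 (SE 0.22, 95% interval -0.25 to 0.68), and -0.011 (SE 0.22) without *Pax7KR* replicate 1. *Cdh11* stood at 1.98, 2.43 and 1.75 CPM in *Pax7WT* and at 3.32, 2.18 and 2.60 CPM in *Pax7KR*, on 36 to 76 reads. Its log2 fold change was the highest of the members at 0.40 (SE 0.30, 95% interval -0.25 to 1.04), with an edgeR adjusted p of 0.992, and only *Pax7KR* replicate 2 fell within the *Pax7WT* range. A list of 12 fibro-adipogenic markers, from the mesenchymal cells of muscle, summed to 3073 to 3160 CPM in *Pax7WT* and 3125 to 3255 CPM in *Pax7KR*. Nearly all of that came from *Col3a1*, *Gsn* and *Dpt*, and the other 9 genes summed to 72.4 to 108 CPM in *Pax7WT* and 72.3 to 113 CPM in *Pax7KR*. The part of the list in the level of *Cdh11* was not tested.

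*Cdh1*, *Cdh22* and *Cdh10* were at the edge of detection. *Cdh1* encodes E-cadherin, the cadherin of epithelia, and held 18, 21 and 11 reads in *Pax7WT* and 15, 22 and 12 reads in *Pax7KR*. Its log2 fold change was -0.13 (SE 0.51, 95% interval -1.24 to 0.97). Its CPM was highest in *Pax7WT* replicate 2, at 1.19, and this library was also the only one with an epithelial list above 1 CPM. The list of 8 genes summed to 18.4 CPM there, of which 8.30 CPM was the keratin *Krt14*, and to at most 0.682 CPM elsewhere, while *Krt8* and *Cldn4* had 0 reads in every library. The part of these genes' source in the level of *Cdh1* was not tested, and *Cdh1* without *Pax7WT* replicate 2 had a log2 fold change of 0.25 (SE 0.58). *Cdh22* held 17, 10 and 16 reads in *Pax7WT* and 2, 11 and 12 in *Pax7KR*, with a log2 fold change of -0.82 (SE 0.68, 95% interval -2.28 to 0.64). *Cdh10* held 12, 3 and 10 reads in *Pax7WT* and 7, 3 and 4 in *Pax7KR*, with a log2 fold change of -0.83 (SE 0.80, 95% interval -2.55 to 0.90). With so few reads, changes within these wide intervals could not be told from 0.

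**Figure D3:**
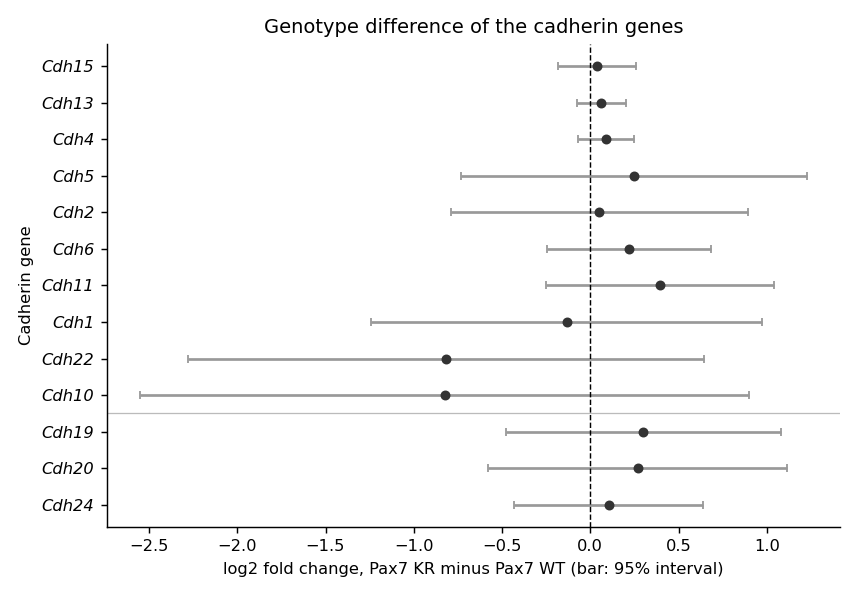
Log2 fold change (*Pax7KR* minus *Pax7WT*, horizontal axis) with its 95% interval for the 10 members, ordered by level, and, below the grey line, for the 3 other cadherins that could be tested. Every interval includes 0, and the intervals range in width from -0.08 to 0.20 for *Cdh13* to -2.55 to 0.90 for *Cdh10*.

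Of 10 further cadherins of these families, *Cdh19*, *Cdh20* and *Cdh24* passed the filter. *Cdh24* had 53 to 107 reads and a log2 fold change of 0.10 (SE 0.25). *Cdh19*, a type II cadherin known from glia of peripheral nerve, had 24 to 65 reads and a log2 fold change of 0.30 (SE 0.36). For *Cdh20*, with 22 to 48 reads, it was 0.27 (SE 0.39). The edgeR adjusted p was 0.998 for each. *Cdh3* held 0 to 6 reads and *Cdh26* 0 to 2 reads, and *Cdh7*, *Cdh8*, *Cdh9*, *Cdh12* and *Cdh18* held 0 reads in every library. In the shallowest library, 0 reads allow up to 3 reads, or 0.169 CPM, by counting error alone.

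Most of the better measured members were carried by a single transcript. *Cdh15* has a single annotated transcript, and all reads of *Cdh6* and *Cdh11* lay on Cdh6-201 and Cdh11-201. Cdh5-201 took 95.1% to 100% of the TPM of its gene, Cdh13-201 87.2% to 96.0% and Cdh4-201 80.9% to 100%. For *Cdh2* the reads were split between the protein-coding Cdh2-201 and Cdh2-202. Cdh2-201 took 33.0%, 68.4% and 100% in *Pax7WT* and 54.4%, 50.3% and 36.9% in *Pax7KR*, a spread within *Pax7WT* that exceeded the difference of the genotype means, and the exact two-sided permutation test gave p = 0.5. For Cdh13-201 and Cdh4-201 that exact test gave p = 0.7 and p = 0.4, and with 3 against 3 libraries it cannot go below 0.1. The share of Cdh10-202 reached that limit, 84.0% ± 27.7 (SD, n = 3) in *Pax7WT* and 11.2% ± 19.3 (SD, n = 3) in *Pax7KR*, exact permutation p = 0.1, but on at most 12 reads per library.

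Catenins join the tailed cadherins to actin. Of 10 catenin genes, 8 were tested, 0 were called, 5 had a log2 fold change above 0 and 3 below, and the median was 0.01. *Ctnnb1* (β-catenin) stood at a mean of 408 TPM, *Jup* (plakoglobin) at 242 TPM, *Ctnna1* (αE-catenin) at 153 TPM and *Ctnnd1* (p120-catenin) at 128 TPM. Their log2 fold changes were 0.01 (SE 0.06), 0.02 (SE 0.07), -0.04 (SE 0.06) and 0.05 (SE 0.06). The p120 relatives *Arvcf* and *Pkp4* had values of -0.13 (SE 0.18) and 0.05 (SE 0.09), the α-catenin-like *Ctnnal1* 0.04 (SE 0.19), and *Ctnna3*, on 10 to 20 reads, -0.42 (SE 0.53). *Ctnnd2* and *Ctnna2* were not tested, with at most 1 and 5 reads.

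Among 15 actin linkers and junction scaffolds, 0 were called, 10 were above 0 and 5 below, and the median log2 fold change was 0.03. *Actn1* (α-actinin-1), which crosslinks actin, had the lowest unadjusted p, 0.00421. It stood at 70.0, 74.4 and 68.9 CPM in *Pax7WT* and 81.6, 88.0 and 80.5 CPM in *Pax7KR*, so the genotypes did not overlap. The log2 fold change was 0.23 (SE 0.07), with an edgeR adjusted p of 0.992. The most abundant were *Actn4* at 513 TPM, *Zyx* at 213 TPM and *Afdn* at 58.8 TPM, with log2 fold changes of 0.09 (SE 0.06), 0.02 (SE 0.07) and 0.04 (SE 0.07). Genotypes did not overlap for 3 of the 15, beside 10.3% of all genes tested, namely *Actn1*, *Actn4* and, in the lower direction and named only after its value was seen, *Lima1* (-0.11, SE 0.07).

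Nectins, the immunoglobulin-type proteins that start junctions beside cadherins, gave 8 tested genes of 9, with 3 above 0, 5 below and a median of -0.06. *Nectin3* stood at 109, 105 and 103 CPM in *Pax7WT* and at 114, 114 and 122 CPM in *Pax7KR*, without overlap. Its log2 fold change was 0.14 (SE 0.06), with an unadjusted p of 0.0332 and an edgeR adjusted p of 0.992. *Pvr*, at 78.1 TPM, had -0.16 (SE 0.08) and *Cadm4*, at 32.0 TPM, -0.05 (SE 0.10).

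The 13 genes of cadherin maturation and shedding include proprotein convertases that cut the precursor, ADAM10, which sheds the ectodomain, and the γ-secretase complex. All 13 were tested, 10 were above 0 and 3 below with a median of 0.03, and 0 had an unadjusted p under 0.05. The most abundant were *Ncstn* (109 TPM, log2 fold change 0.01, SE 0.06), *Psenen* (88.3 TPM, 0.03, SE 0.10) and *Numb* (87.1 TPM, -0.06, SE 0.07). Of 9 co-receptors and effectors of cadherins in myoblasts, all were tested, 2 were above 0 and 7 below, and the median was -0.07. *Cdon*, a receptor that associates with cadherins in myoblasts, was the most abundant at 293 TPM. Its values were 1487, 1444 and 1171 CPM in *Pax7WT* and 957, 1062 and 1389 CPM in *Pax7KR*, which overlap, with a log2 fold change of -0.27 (SE 0.16, 95% interval -0.64 to 0.10). *Rhoa* (281 TPM) and *Rac1* (267 TPM), small GTPases, had -0.07 (SE 0.06) and -0.01 (SE 0.06). Genotypes did not overlap for 2 of the 9, beside the same 10.3% of all genes, namely *Rhoa* and *Neo1*, both lower, the latter (-0.06, SE 0.06) named after its value was seen.

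Adiponectin, the ligand that T-cadherin binds, is made by fat cells. *Adipoq*, its gene, held 0 to 7 reads and was not tested, and the receptors *Adipor1* and *Adipor2* had log2 fold changes of 0.003 (SE 0.07) and -0.05 (SE 0.07). *Lrp6*, a co-receptor of Wnt signalling rather than of adiponectin, was placed in the same list, which was drawn with earlier results of these data known. It alone of the 3 tested genes of the list had an unadjusted edgeR p under 0.05. *Lrp6* stood at 423, 446 and 449 CPM in *Pax7WT* and at 569, 584 and 538 CPM in *Pax7KR*. All 3 *Pax7KR* libraries were above all *Pax7WT* libraries, with a log2 fold change of 0.36 (SE 0.06, 95% interval 0.22 to 0.49). The edgeR adjusted p was 0.354, whereas DESeq2 called it with an adjusted p of 0.000544 and a log2 fold change of 0.36 (SE 0.07). Leaving out any library kept the edgeR value between 0.33 and 0.39. *Cdh13*, at 0.06, showed no such separation in CPM.

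Several transcription factors are known as repressors of *Cdh1*. Of 9 of them, 7 were tested, 0 were called, 1 was above 0 and 6 below, and the median log2 fold change was -0.04. *Tcf4* stood at 260 TPM, *Zeb2* at 139 TPM, *Zeb1* at 76.0 TPM, *Tcf3* at 69.3 TPM and *Snai2* at 37.9 TPM. Their log2 fold changes were -0.02 (SE 0.06), -0.09 (SE 0.10), -0.04 (SE 0.06), -0.02 (SE 0.06) and -0.06 (SE 0.08). *Snai1*, at 7 to 40 reads, had -0.18 (SE 0.51) and *Twist1*, at 1 to 8 reads, 0.60 (SE 1.07). *Snai3* and *Twist2*, with at most 1 and 3 reads, were not tested.

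**Figure D4:**
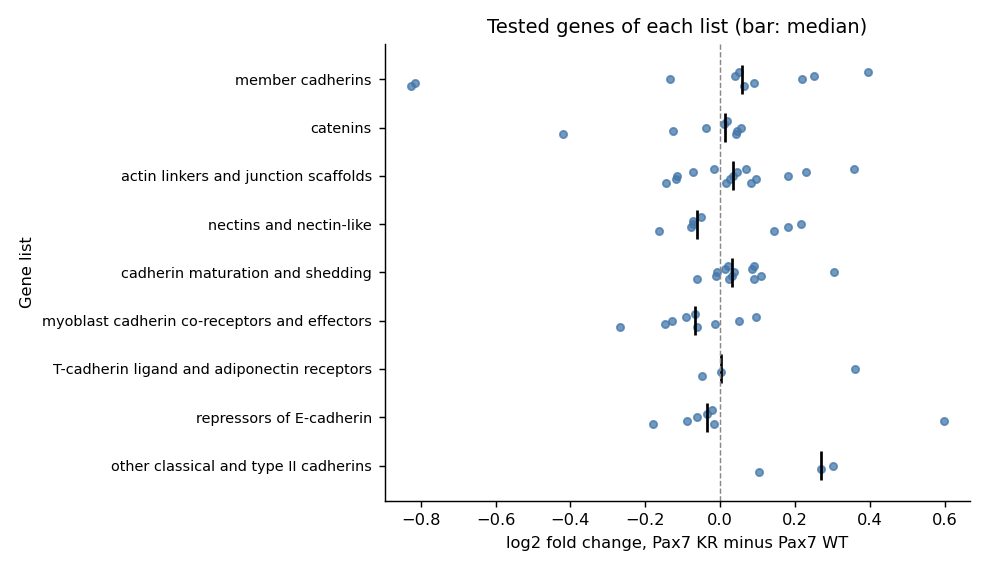
Log2 fold change (*Pax7KR* minus *Pax7WT*, horizontal axis) of each tested gene, by list, with a black bar at the median. Medians lie between -0.07 and 0.06 except for the 3 other cadherins (0.27). The point furthest right in the list of T-cadherin ligand and adiponectin receptors is the Wnt co-receptor *Lrp6* at 0.36.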

How the data were processed

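RNA-sequencing of sorted satellite cells (3 *Pax7WT*, 3 *Pax7KR*) was analysed from transcript tables. Per the methods, libraries were made with a directional kit, sequenced on a NextSeq 500, and quantified by the authors with Salmon (version 1.3.0) against GENCODE vM25 transcripts with genome decoys. The deposited tables hold estimated counts, not normalized, and TPM. The authors tested genotypes with DESeq2 (version 1.28.1); the deposited table of that comparison, with fold changes and p-values, was not used.

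Estimated counts were summed per gene through GENCODE vM21 (GRCm38), which matched 139791 of 140992 transcripts (0.592% to 0.634% of reads unmatched), and rounded. The filter kept genes that reached 5 reads in at least 2 libraries. The test was edgeR (version 4.0.16) with TMM, the robust quasi-likelihood test and Benjamini-Hochberg adjustment over all 17152 genes at 0.1. CPM use TMM library sizes. TPM were summed per gene. DESeq2 (version 1.42.0), in R (version 4.3.3), other scalings, filters, a transcript-length offset, a replicate block and each library left out were alternatives. Transcript shares were compared by exact permutation tests in scipy (version 1.17.1). Depth was 17822367 to 27908054 estimated reads per library, and limits from 0 reads cover counting error only. Scripts were tested on simulated data. Pairs of libraries differed by a chi-square per gene of 9.73 to 21.9 within a genotype, so no library was a copy.

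The members and lists were chosen with earlier results of these data known. Named are all members, other tested cadherins, catenins and repressors, and from each further list of junction genes, partners and co-receptors the 3 with the highest mean TPM and those with an unadjusted p under 0.05. Marker lists covered satellite, endothelial, fibro-adipogenic, tenocyte, Schwann and glial, smooth muscle and pericyte, immune, myofibre and epithelial genes, and marker genes named singly were picked after their values were seen.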

Additional observations from a re-analysis of the deposited data

How the results depend on the processing

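The count of called members was 0 in every alternative run, though DESeq2 with transcript length gave no adjusted p for *Cdh1*, *Cdh10* and *Cdh22*. Over all genes, where edgeR called 0, DESeq2 called 30, DESeq2 with transcript length 45, edgeR with no filter on low reads 157, and edgeR with a replicate block 13. Without a single library, edgeR called 1 to 32 genes, with some calls whichever of the 6 was left out and the most without *Pax7KR* replicate 3. The main fit did not pair same-numbered libraries, and the sources used here do not say whether they were matched. Their deviations from the genotype means correlated at 0.002, 0.045 and -0.056 over the genes tested. Such values cannot exclude a shared effect or pairing, because counting noise in genes with few reads also brings them near 0. Under the replicate block the log2 fold change of *Cdh2* was -0.054. In the list with *Lrp6*, 1 gene, *Lrp6* itself, was called instead of 0 by DESeq2, by DESeq2 with transcript length, with no filter, and without *Pax7KR* replicate 3 (leaving out a library gave 0 to 1), while the other edgeR settings called 0. Of marker genes, *Emcn* (log2 fold change 0.88, edgeR adjusted p 0.0613), *Ngfr* (-0.48, 0.00461), *Mbp* (-0.32, 0.0683) and *Dcn* (0.42, 0.0912) were called with no filter. That setting called 157 of 24068 genes tested. These markers belong to the endothelial (16 genes), Schwann and glial (10 genes) and fibro-adipogenic (12 genes) lists. *Krt14* was called under the replicate block (-8.96, edgeR adjusted p 0.0511), where 13 of 17152 genes were called. Its epithelial list was above 1 CPM only in *Pax7WT* replicate 2. Leaving out a library turned the direction of *Cdh15* (range -0.037 to 0.16), *Cdh2* (-0.45 to 0.28), *Cdh6* (-0.011 to 0.39) and *Cdh1* (-0.36 to 0.25), whereas *Cdh13*, *Cdh4*, *Cdh5* and *Cdh11* stayed above 0 (*Cdh5* between 0.0033 and 0.59) and *Cdh10* and *Cdh22* below. With at least 10 reads required in every library, *Cdh10* and *Cdh22* could not be tested.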

Other observations

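The remaining marker lists gave the following summed levels, as values. Tenocyte genes (6) summed to 42.7 to 84.9 CPM in *Pax7WT* and 55.2 to 56.1 CPM in *Pax7KR*. Schwann and glial genes (10) summed to 113 to 138 CPM against 88.3 to 114 CPM, and myofibre genes (10) to 107 to 124 CPM against 90.5 to 113 CPM. Log2 fold changes were above 0 for 3 of 6 tenocyte, 3 of 10 Schwann and glial and 2 of 10 myofibre genes. Smooth muscle and pericyte genes (10) summed to 2551 to 2918 CPM against 2376 to 2613 CPM. All 10 smooth muscle and pericyte genes had a log2 fold change below 0, with a median of -0.14 and 0 called by edgeR. Over all genes tested, 8753 of 17152 were below 0. Immune genes (10) summed to 8.6 to 11.8 CPM against 9.55 to 13.1 CPM, with *Cd3e* at 0 reads in every library. Of 9 immune genes tested, 6 were above 0, and 3 had genotypes that did not overlap in CPM, all higher in *Pax7KR*. Non-overlap covered 10.3% of all genes tested, and at most 1 gene of each other list here. An unadjusted edgeR p under 0.05 was found for 2 immune genes and 1 Schwann and glial gene, beside 4.68% of all genes tested. By edgeR, 0 genes of these lists were called.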
